A study of Mus musculus with 8 samples.

Results

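The comparison described here set bone marrow-derived macrophages given fenoterol for 15 min against unstimulated macrophages. It used 4 of the 8 ATAC-seq libraries of the series, namely 2 fenoterol and 2 unstimulated libraries, chosen by their labels, and all 74207 peaks of the deposited table. All cells came from wild-type C57Bl/6 mice, and 2 mice each gave 1 library for every condition, so fenoterol and unstimulated libraries are paired by animal. Fenoterol was used at 1 µM with no further stimulus. The other 4 libraries had LPS at 100 ng/mL for 1 h, alone or after 15 min of 1 µM fenoterol. They entered the scaling, the filter on level, the level classes and the spread between replicates, and served as context and for the interaction. Each group thus has n = 2 mice, and the cells with both agents were collected after the added hour of LPS, later after the agonist than those with fenoterol alone. Peaks are named by position on mouse build mm9 as the table gives it. Gene annotation and DNA sequence of that build were not used here, so neither genes nor macrophage marker loci are named.

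Fenoterol activates the β2 adrenergic receptor, a receptor for adrenaline and noradrenaline that macrophages carry on their surface. The receptor couples mainly to the stimulatory G protein, which switches on adenylyl cyclase and raises cyclic AMP. Cyclic AMP activates protein kinase A, which phosphorylates transcription factors of the CREB family, and the receptor can also feed into MAP kinase signalling. ATAC-seq reads out how open chromatin is at the enhancers and promoters to which such factors bind, because the Tn5 transposase inserts sequencing adapters preferentially into open DNA.

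The depth of the libraries was uneven. The unstimulated library of mouse 1 held 1426873 reads in peaks, and the 7 others had 3164446 to 4040292. Among tested peaks the median held 10 reads in that library, 32 in the unstimulated library of mouse 2, and 24 and 30 in the fenoterol libraries of mouse 1 and mouse 2. Levels are RPKM after scaling by library size factors, relative to reads in peaks, so a change shared by all peaks would not be seen. Changes are log2 differences of the scaled value + 4 RPKM which understates the ratio of 2 levels, most of all for low peaks. The words rose and fell are kept for peaks with an adjusted p under 0.05.

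After 15 min of fenoterol only a handful of regions passed the threshold against unstimulated cells. Of 66786 tested peaks, 4 rose and 1 fell by limma-trend with Benjamini-Hochberg adjustment (0.00749% of those tested, 0.00599% higher and 0.0015% lower). With the mouse as a block, 7 rose and 1 fell (0.012% in all, 0.0105% and 0.0015%), and these 8 include all 5 of the first test. Limma voom on recovered reads called 42 higher and 3 lower (0.0674% in all, 0.0629% and 0.00449%). The 7 regions that rose in either limma-trend fit did so by 1.71- to 3.83-fold on the scale used, from unstimulated means between 5.13 and 55.2 RPKM to means between 32.4 and 97.4 RPKM.

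The peak with the smallest adjusted p lay at chr18:56893474-56893894. Its levels were 14.2 and 21.2 RPKM in the unstimulated libraries of mouse 1 and mouse 2, 58.3 and 48.3 RPKM with fenoterol, 39.1 and 40.6 RPKM with LPS, and 43.9 and 39.8 RPKM with both agents. Both fenoterol values were the highest of the 8 and did not overlap with the unstimulated ones. The mean went from 17.7 ± 4.92 to 53.3 ± 7.04 RPKM (SD, n = 2), a log2 change of 1.41 (SE 0.16, 95% interval 1.08 to 1.75, adjusted p = 0.00153 by limma-trend). The change was 1.77 in mouse 1, whose unstimulated value rests on 8 reads, and 1.06 in mouse 2, where 37 reads became 79. The call was lost without the fenoterol library of mouse 1 (adjusted p = 0.173 by limma-trend).

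A peak at chr5:106147045-106147777 stood out in the fenoterol libraries alone. It measured 28.5 and 36.1 RPKM in unstimulated cells and 81.0 and 70.5 RPKM with fenoterol, against 35.6 and 31.1 RPKM with LPS and 35.2 and 31.2 RPKM with fenoterol and LPS. The 6 libraries other than those with fenoterol alone thus lay within the range of 28.5 to 36.1 RPKM. The log2 change with fenoterol was 1.14 (SE 0.15, adjusted p = 0.00588 by limma-trend), with 1.38 in mouse 1 and 0.89 in mouse 2. This peak is the best counted of the 5, with 28 and 110 reads in unstimulated cells and 189 and 201 with fenoterol. Its call was lost without the fenoterol library of mouse 1 (adjusted p = 0.596) and, narrowly, without that of mouse 2 (adjusted p = 0.0514).

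The change of greatest size was at chr2:167519845-167520084, a narrow peak of 240 bp that was nearly closed in unstimulated cells. Levels were 6.25 and 4.02 RPKM unstimulated and 43.3 and 21.5 RPKM with fenoterol. With LPS they were 15.4 and 14.7 RPKM, and with both agents 16.9 and 16.3 RPKM. All 6 treated libraries lay above both unstimulated ones, and the 2 fenoterol libraries were the highest, although they differed from each other by more than any other pair of a group at this peak. The log2 change was 1.94 (SE 0.28, adjusted p = 0.0252 by limma-trend). It rests on 2 and 4 unstimulated reads against 33 and 20 reads with fenoterol. The call was lost without the fenoterol library of mouse 1 and without any 1 of the 4 libraries with LPS (adjusted p = 0.051 to 0.0624 by limma-trend). Leaving out a library with LPS altered only the spread, not the change.

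Of these 5 peaks, that at chr12:17513779-17514389 had the smallest gap between the changes of the 2 mice. Unstimulated levels were 23.2 RPKM in both mice, and fenoterol levels were 47.3 and 45.1 RPKM. The LPS libraries had 42.7 and 44.4 RPKM and those with both agents 48.9 and 47.5 RPKM, so all 3 treatments gave a similar level. The log2 change with fenoterol was 0.88 (SE 0.13, adjusted p = 0.0257 by limma-trend), with 0.91 and 0.85 in the 2 mice. That with LPS, against the same unstimulated libraries, was 0.80 (adjusted p = 0.00057). The fenoterol call was lost without either fenoterol library (adjusted p = 0.912 and 0.184), without any 1 library with LPS (0.0802 to 0.0853) and with only the 4 libraries of this comparison in the fit (0.107).

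The peak that fell, at chr14:63764295-63764497, is 203 bp wide. It went from 48.0 and 38.1 RPKM in unstimulated cells to 7.77 and 15.3 RPKM with fenoterol, and had 29.4 and 30.8 RPKM with LPS and 28.8 and 13.8 RPKM with both. Both fenoterol values lay below both unstimulated values, but the library of mouse 2 with both agents lay between the fenoterol values. The log2 change was -1.64 (SE 0.25, adjusted p = 0.0257 by limma-trend). It rests on 13 and 32 unstimulated reads against 5 and 12, and the call was lost by voom (adjusted p = 0.0599). Without the unstimulated library of mouse 1 the adjusted p was 0.158, without the fenoterol library of mouse 1 it was 0.921, and without the LPS library of mouse 1 or mouse 2 it was 0.0685 or 0.0757.

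**Figure D1:**
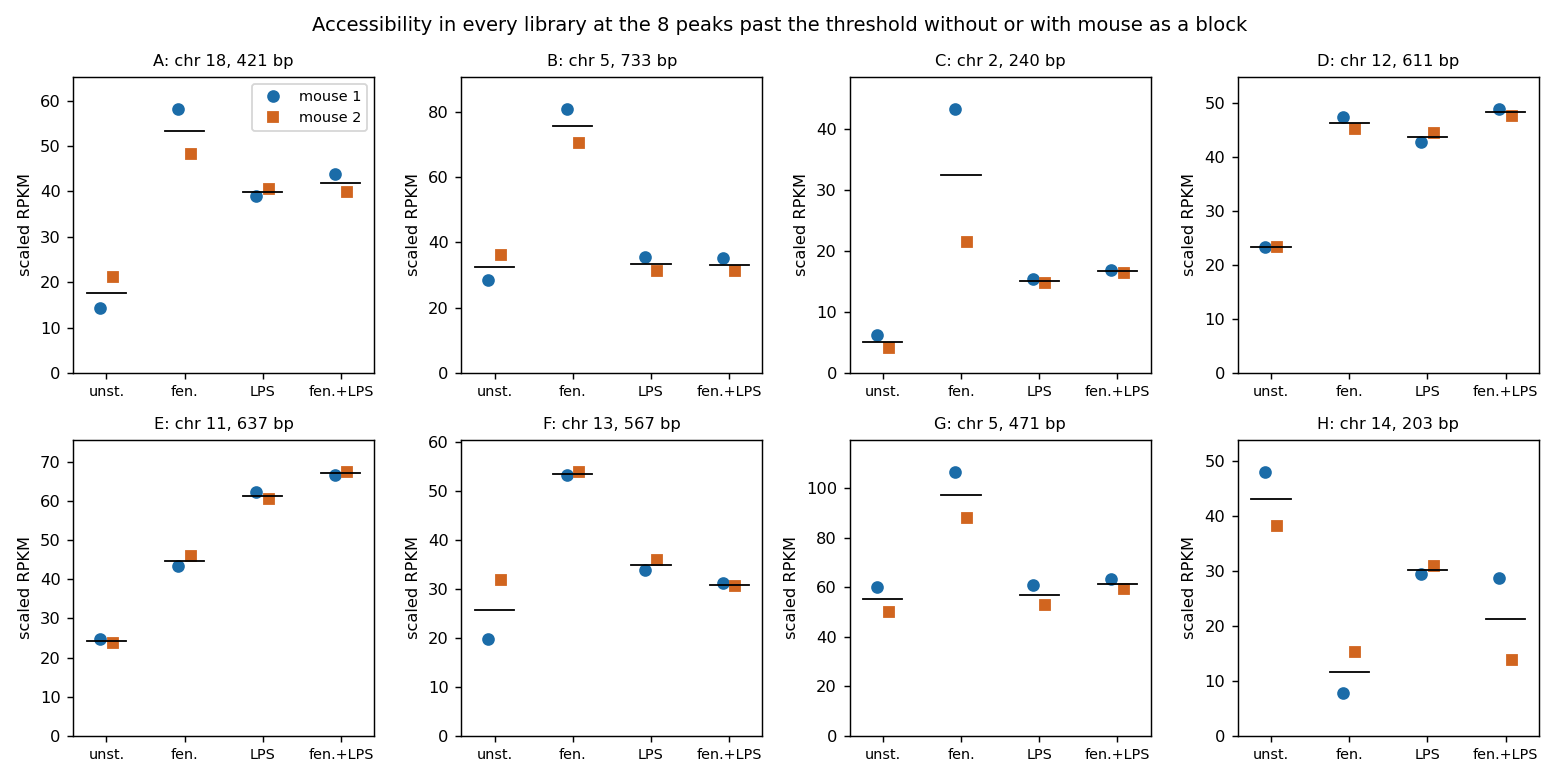
Scaled RPKM (vertical axes, each from 0) in each of the 8 libraries by condition, at the 8 peaks past the threshold without or with the mouse as a block. Circles are mouse 1, squares mouse 2 and bars group means (n = 2). In panels A, B, C, F and G both fenoterol values stand above all other libraries, in D and E LPS also gave high values, and H is the 1 peak that fell.

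With the mouse as a block, 3 more peaks rose. At chr11:6595147-6595783, levels were 24.6 and 23.8 RPKM unstimulated, 43.4 and 46.0 RPKM with fenoterol, 62.3 and 60.5 RPKM with LPS and 66.7 and 67.5 RPKM with both (log2 change with fenoterol 0.79, adjusted p = 0.0368 by limma-trend with the block and 0.0666 without). The 4 conditions did not overlap here, and the fenoterol level lay between the unstimulated and LPS levels. At chr13:43860555-43861121 the 2 fenoterol libraries had 53.2 and 54.0 RPKM, against 19.8 and 31.8 RPKM unstimulated and 30.5 to 35.9 RPKM in the 4 libraries with LPS. Its log2 change was 0.98 (adjusted p = 0.039 with the block, 0.0793 without). The peak at chr5:98462010-98462480 had the highest level of the 8, at 107 and 88.0 RPKM with fenoterol against 60.3 and 50.1 RPKM unstimulated and 53.0 to 63.4 RPKM with LPS. Its log2 change was 0.77 (adjusted p = 0.0368 with the block, 0.14 without), and 0.78 and 0.77 in the 2 mice. In the order given, these 3 peaks passed the threshold in 11, 10 and 12 of 25 alternative settings. The 5 peaks described first passed in 14 to 22 of the 25.

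Beyond these, the 12 higher and 12 lower peaks with the smallest unadjusted p that went the same way in both mice were examined as ranked lists, of which 4 and 1 passed the threshold. The groups did not overlap at any of the 24, which the ranking favours; over all tested peaks fenoterol lay wholly above unstimulated cells at 15.1% and wholly below at 17.0%. The 12 higher peaks had a median width of 542 bp, against 421 bp over all tested peaks, and went from a median of 22.0 RPKM to 45.5 RPKM. The 12 lower peaks were narrower, with a median of 222 bp, and 7 of the 12 were under 300 bp, against 19.3% of all tested peaks. They went from a median of 32.8 RPKM to 15.1 RPKM. Narrow peaks had an unadjusted p under 0.05 by limma-trend more often in both directions. Of the peaks of 200 bp, 7.03% were higher and 6.04% lower with such a p, against 3.89% and 3.54% of all tested peaks. Of the 12 higher peaks 9 passed by voom, and of the 12 lower peaks 0 did. The 3 peaks that voom called lower were other, wider ones, with a median width of 1077 bp. The change was larger in mouse 1 than in mouse 2 at 9 of the 12 higher and 8 of the 12 lower peaks, and mouse 1 has the shallow unstimulated library; the part of depth in this was not tested.

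Among the higher peaks short of the threshold in both limma-trend fits, chr2:151412949-151413567 had 35.0 and 34.6 RPKM unstimulated and 65.0 and 58.2 RPKM with fenoterol (adjusted p = 0.0938 by limma-trend, 0.00154 by voom). The peak at chr5:67786408-67787128 had 20.7 and 18.0 RPKM unstimulated and 41.8 and 38.5 RPKM with fenoterol (adjusted p = 0.125 by limma-trend, 0.000137 by voom). Both stood higher with fenoterol and LPS than with LPS alone, at 42.1 and 40.1 RPKM against 31.6 and 32.9 RPKM for the first, and 25.3 and 25.9 RPKM against 18.5 and 16.2 RPKM for the second. The last of the 12, at chr17:8701217-8701461, had a single read in the unstimulated library of mouse 1, a value that the table also gives to peaks without reads. It measured 3.06 and 7.88 RPKM unstimulated and 38.6 and 17.9 RPKM with fenoterol (adjusted p = 0.125).

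Among the lower peaks, chr8:42328545-42328760 measured 13.9 and 11.2 RPKM unstimulated and 2.92 and 3.58 RPKM with fenoterol, on 4, 10, 2 and 3 reads (adjusted p = 0.133 by limma-trend). In the LPS libraries it had 51.3 and 40.3 RPKM. The peak at chr11:83475775-83476337, the best counted of the 12, had 42.5 and 33.8 RPKM unstimulated and 20.1 and 21.9 RPKM with fenoterol, on 32, 79, 36 and 48 reads (adjusted p = 0.156). At chr8:28373038-28373244, levels were 25.4 and 24.5 RPKM unstimulated and 13.7 and 8.73 RPKM with fenoterol (adjusted p = 0.176), but 41.2 and 28.9 RPKM with LPS and 68.7 and 51.4 RPKM with both. There the difference with fenoterol thus pointed down without LPS and up with LPS. The 2 peaks at chr8:114062042-114062483 and chr8:114166643-114166869 lie 104 kb apart and are the only 2 of the 25 named peaks within 1 Mb of each other.

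Most peaks that voom called higher were well counted and wider than the median tested peak. The 42 peaks lay on 16 chromosomes and were 594 bp wide at the median, against 421 bp over all tested peaks. Of the 42, 28 fell in the highest of 4 equal classes of tested peaks by mean level, with 1 in the lowest. Calls are easier at high levels, where the median SE by limma-trend was 0.15 on the log2 scale, against 0.33 in the lowest class. The level of the 42 thus describes in part where a change can be detected. The voom changes of the 42 ran from 1.45- to 5.38-fold with a median of 1.89-fold. Both mice went up at all 42, which a call on 2 mice favours, against 23.8% of all tested peaks. The median level was 28.7 RPKM unstimulated, 52.3 RPKM with fenoterol, 29.1 RPKM with LPS and 32.7 RPKM with both. Fenoterol alone had the highest of the 4 group means at 40 of the 42; among all tested peaks whose fitted change with fenoterol was upward this held for 49.1%. A call for a large rise over unstimulated cells favours such a rank, so these shares are given as a description. LPS, compared with the same unstimulated libraries, rose at 6 of the 42 and fell at 1 by limma-trend, against 6.53% and 3.54% of all tested peaks.

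Other peaks called by voom were picked here after their values were seen and, but for 1 named as such, lay outside the ranked lists. At chr19:53499022-53499631 the unstimulated libraries had 34.3 and 23.3 RPKM, the fenoterol libraries 55.6 and 54.0 RPKM and the 4 libraries with LPS 18.2 to 27.9 RPKM (adjusted p = 5.71e-05 by voom, 0.222 by limma-trend). At chr2:56968781-56969533 the levels were 52.6 and 55.6 RPKM unstimulated, 98.0 and 83.0 RPKM with fenoterol and 48.3 to 60.8 RPKM with LPS (adjusted p = 0.000239 by voom, 0.176 by limma-trend). A second voom call lay 115 kb from it, at chr2:57084702-57085135, with 8.62 and 7.77 RPKM unstimulated and 26.8 and 26.1 RPKM with fenoterol. On chromosome 18, the peaks at 82994815 to 82995359 and 82995439 to 82995954 are 80 bp apart and both passed by voom. The first had 32.9 and 32.2 RPKM unstimulated and 65.7 and 52.9 RPKM with fenoterol, and the second, which is among the 12 ranked higher peaks, 24.6 and 27.1 RPKM against 53.0 and 46.9 RPKM. The 3 peaks lower by voom were all at least 703 bp wide; the broadest, chr13:24908220-24909667, had 57.8 and 57.6 RPKM unstimulated, 30.4 and 38.5 RPKM with fenoterol and 12.5 to 16.6 RPKM in the libraries with LPS (adjusted p = 0.000137 by voom, 0.355 by limma-trend).

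Whether fenoterol also moved these regions in the presence of LPS was read from the fenoterol + LPS and LPS libraries. These entered the ranking only through the scaling, the filter on level and the spread. At 10 of the 12 higher peaks the level was higher with both agents than with LPS alone. The median log2 difference was 0.13, with a range of -0.16 to 0.54, against 0.92 without LPS. The peaks were ranked on the change without LPS, which favours a large value there, so these medians are not like for like. Over all tested peaks 49.1% were higher, with a median of -0.01. At the 12 lower peaks 6 were higher and the median was -0.07. For the chromosome 5 peak at 106147045 the difference with LPS was 0.00 (95% interval -0.31 to 0.30), and for the chromosome 18 peak at 56893474 it was 0.06 (-0.27 to 0.40). None of the 66786 peaks passed limma-trend in that comparison (0.0%, with 4447 at an unadjusted p under 0.05), and voom called 372 higher and 35 lower. None of the 25 named peaks and none of the 45 that voom called without LPS was among those 407 (0.609% of all tested). At so low a share, lists of this size would seldom hold such a call, so this does not set these peaks apart.

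The difference between the 2 fenoterol effects was tested as an interaction across all peaks. None passed by limma-trend (0 of 66786, smallest adjusted p = 0.262, with 4225 at an unadjusted p under 0.05), and voom called 5. Leaving out the unstimulated library of mouse 2 gave 278 by limma-trend. At the chromosome 5 peak at 106147045 the interaction was -1.14 on the log2 scale (SE 0.21, adjusted p = 0.269 by limma-trend), at the chromosome 18 peak at 56893474 it was -1.35 (SE 0.23, adjusted p = 0.262), and at the chromosome 14 peak it was 1.14 (SE 0.35, adjusted p = 0.654). Since these peaks were ranked on the change without LPS, the sign of their interaction follows in part from that choice. With the mouse as a block 1 peak passed, the region at chr8:28373038-28373244 (adjusted p = 0.0345 by limma-trend with the block). It rests on 7 and 21 unstimulated reads against 9 and 7 with fenoterol. Without LPS its change with fenoterol had an adjusted p of 0.176 by limma-trend and 0.837 by voom. With LPS the adjusted p was 0.435 by limma-trend. As the cells with both agents were collected later after the agonist, LPS and time since fenoterol cannot be told apart here.

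Peaks next to those that changed were measured within 50 kb. Around the chromosome 2 peak at 167519845, the 12 tested neighbours had log2 changes of -0.37 to 0.19, so the rise of 1.94 was that of a single peak. Around the chromosome 5 peak at 106147045, both mice were higher at 7 of 9 tested neighbours, where 23.8% of all tested peaks were. The largest change there, 0.75 on the log2 scale (adjusted p = 0.184), was 19.5 kb away at chr5:106127719-106128016, with 32.7 and 47.7 RPKM unstimulated and 70.8 and 67.5 RPKM with fenoterol. Near the chromosome 13 peak, 4 of 11 tested neighbours had an unadjusted p under 0.05 and higher levels, against 3.89% of all tested peaks. They were 2.51 to 12.1 kb away, all on the side where 10 of the 11 lie. The one at chr13:43869505-43870028 went from 8.56 and 17.0 RPKM to 34.8 and 30.0 RPKM with fenoterol (log2 change 1.16, adjusted p = 0.184 by limma-trend). Such neighbours were 2 of 7 around the chromosome 12 peak and 2 of 10 around the chromosome 18 peak. They were 1 of 8 around chr5:98462010 and 0 of 4 around the chromosome 11 peak. On chromosome 12, the peak at 17559819 to 17560071 went from 2.96 and 4.77 RPKM to 8.71 and 27.5 RPKM (log2 change 1.36, adjusted p = 0.445 by limma-trend). Around the chromosome 14 peak that fell, both mice were lower at 10 of 12 tested neighbours, with a median change of -0.26. Of all tested peaks 28.3% were lower in both mice. Of the highest level class, to which several of these neighbours belong, 40.4% were. The part of level in this was not tested. Neighbouring peaks are not independent, and no test was made of these counts.

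**Figure D2:**
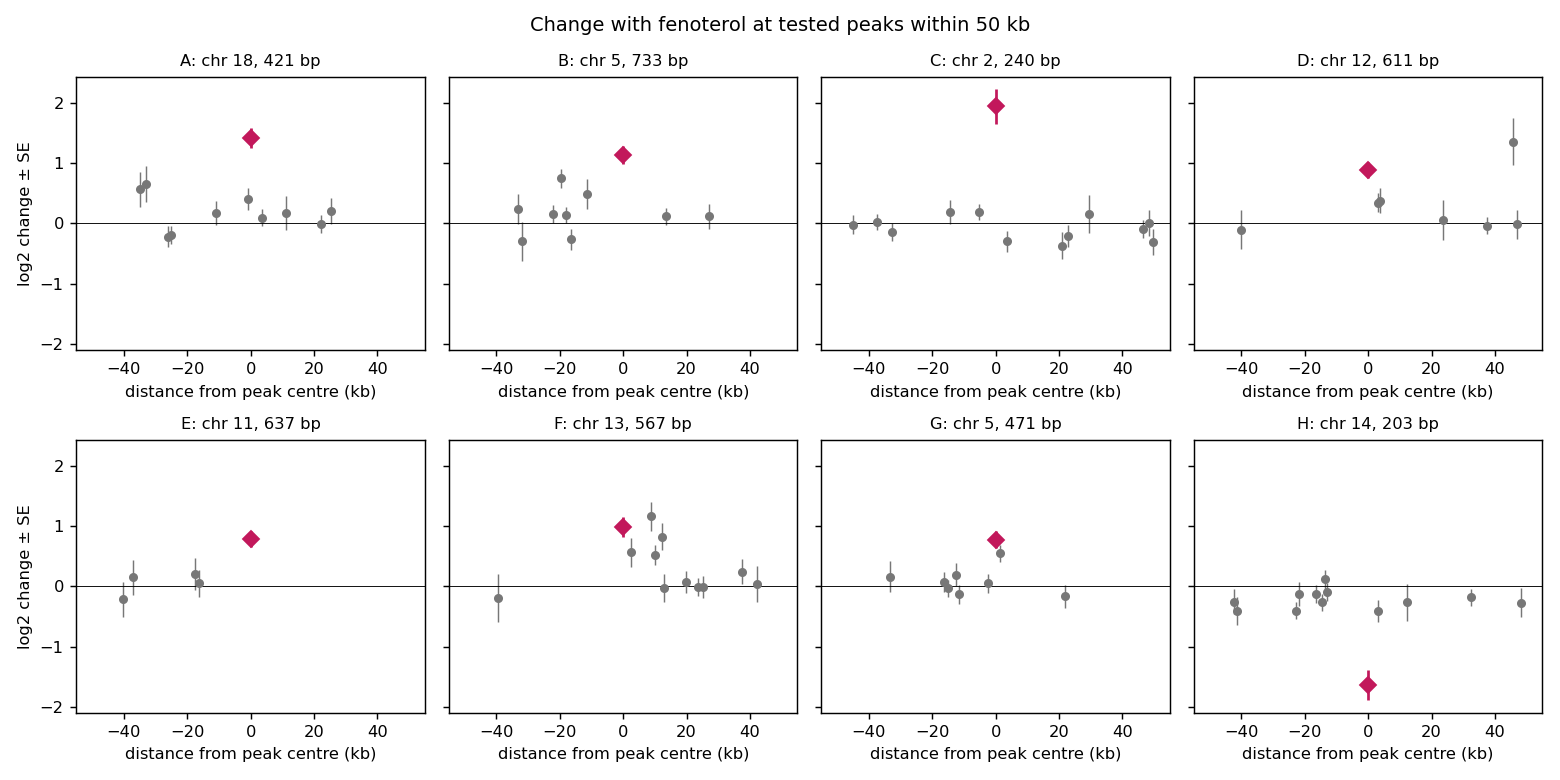
Log2 change with fenoterol ± SE (limma-trend, vertical axis) at every tested peak within 50 kb of the 8 peaks past the threshold without or with the mouse as a block, by distance between peak centres in kb (horizontal axis). Diamonds are the 8 peaks and circles their neighbours. In panel C the neighbours lie close to 0, in F a run of peaks on 1 side also has changes above 0.5, and in H most lie below 0.

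Across the whole peak set the measured changes of the 2 mice agreed little. Of all tested peaks 23.8% were higher in both mice, 28.3% lower in both and 47.9% went opposite ways. On the scale used, a change of 2-fold or more was reached by both mice at 29 peaks upward (0.0434%), 18 downward (0.027%) and 35 in opposite directions (0.0524%). Pearson's r between the changes of mouse 1 and mouse 2 was 0.04 and Spearman's rho 0.04 across 66786 peaks, a description over peaks that share libraries and depth. The SD of the log2 change over peaks was 0.48 in mouse 1 and 0.32 in mouse 2. The difference between the mice within a condition had an SD of 0.46 in unstimulated cells and 0.36 with fenoterol. The change with fenoterol was thus about as wide as the difference between the 2 animals in the same condition. Both wider SDs, 0.48 and 0.46, include the shallow unstimulated library of mouse 1. Between fenoterol and unstimulated libraries, the chi-square of reads over degrees of freedom was 1.06 in mouse 1 and 0.97 in mouse 2. Read counting alone gives a ratio near 1, so the low r does not show that the animals responded differently.

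**Figure D3:**
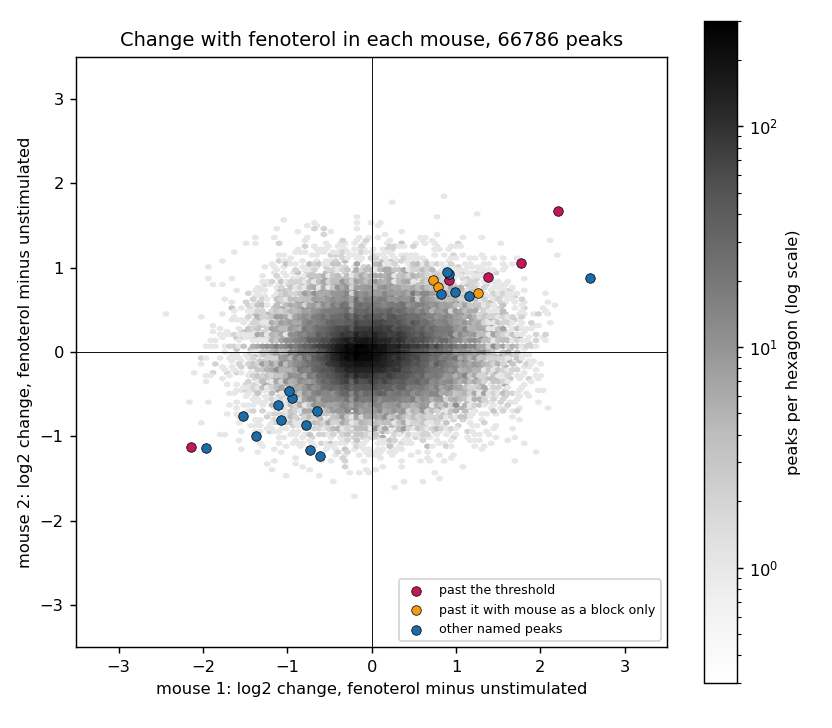
Log2 change with fenoterol in mouse 1 (horizontal axis) against mouse 2 (vertical axis) for the 66786 tested peaks, shaded by the number of peaks per hexagon on a log scale. Coloured points are the 25 named peaks, which were picked for going the same way in both mice or for passing a test, and some lie beyond the cloud and others within it; over all peaks r was 0.04.

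Agreement between the mice differed by the level of the peak. In the highest of the 4 level classes, from 30.3 RPKM up, r was 0.11, and in the lowest, up to 13.1 RPKM, it was 0.02. The median change ran from 0.07 in the lowest to -0.08 in the highest class. In mouse 1 these medians were 0.10 and -0.14, and in mouse 2 0.05 and -0.02. In the highest class 40.4% of peaks were lower in both mice and 14.6% higher in both. Without the unstimulated library of mouse 1 the median of the highest class was 0.02 and that of the lowest -0.02. Without that of mouse 2 they were -0.17 and 0.12. After cyclic loess both were -0.01.

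**Figure D4:**
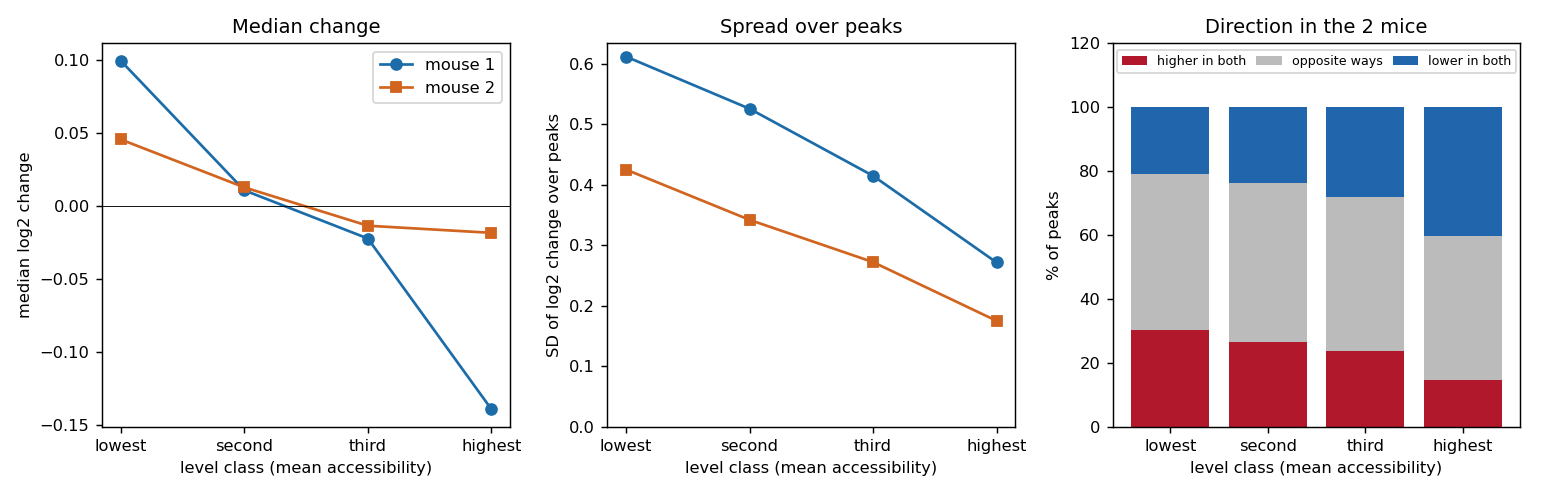
Tested peaks in 4 equal classes of mean accessibility over all 8 libraries (horizontal axes): the median log2 change with fenoterol in each mouse (left), its SD over peaks (middle), and the share of peaks in percent that were higher in both mice, lower in both, or opposite (right). Mouse 1 moves from 0.10 to -0.14 across the classes, mouse 2 from 0.05 to -0.02.

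Width went with level. Of the 3217 tested peaks of 1000 bp or more, 45.9% were lower in both mice and 9.14% higher in both, with a median change of -0.15 in mouse 1 and -0.02 in mouse 2. Pearson's r between the mice was 0.01 and Spearman's rho -0.03 in these broad peaks, although their median level of 49.4 RPKM is high, so the r of the highest level class was not seen in them. Of the 2303 peaks of 200 bp, the least width in the table, 26.3% were higher and 22.6% lower in both. Peaks under 1 kb from the next one were lower in both mice at 30.3% and higher at 21.7%; those 10 kb or more away were lower at 26.4% and higher at 24.8%. Among chromosomes other than Y, the share higher in both mice ran from 22.2% on chromosome 11 to 26.1% on chromosome 16, and the share lower in both from 26.1% on chromosome 16 to 30.3% on chromosome X.

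The data also bound how large a change could have been on the scale used, where 4 RPKM is added to each value. The 95% interval of the change, taken peak by peak with no adjustment, lay wholly inside a 2-fold change either way at 84.2% of tested peaks, and inside 1.5-fold at 38.1%. In the highest level class these shares were 99.7% and 86.2%, and in the lowest 59.0% and 0.0719%. A 2-fold difference in level is less than 2-fold on this scale, most of all at low peaks. Differences in level are thus bounded less tightly than these shares say. The median interval reached 0.31 to either side on the log2 scale in the highest class and 0.68 in the lowest. In all, 4962 peaks (7.43%) had an unadjusted p under 0.05, of which 2595 were higher (3.89%) and 2367 lower (3.54%). On the values as deposited this split was 3158 higher and 1628 lower.

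The count of calls rested on single libraries and on scaling. Without the fenoterol library of mouse 1 no peak passed by limma-trend (3407 at an unadjusted p under 0.05; voom called 17), and with the shallow unstimulated library as the only one of its group, that of mouse 2 being left out, 1728 rose and 1826 fell (voom 7 and 82). Leaving out the shallow library itself gave 8 that rose and 0 that fell (voom 38 and 8). Without 1 of the other 5, 2 or 3 peaks passed. With a prior spread that did not follow the level, none passed (4741 at an unadjusted p under 0.05). On the values as deposited 9 rose and 1 fell, after quantile normalization 29 and 1, and after cyclic loess 25 and 1. The 5 peaks first described were among the calls in each of these 3 scalings.

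**Figure D5:**
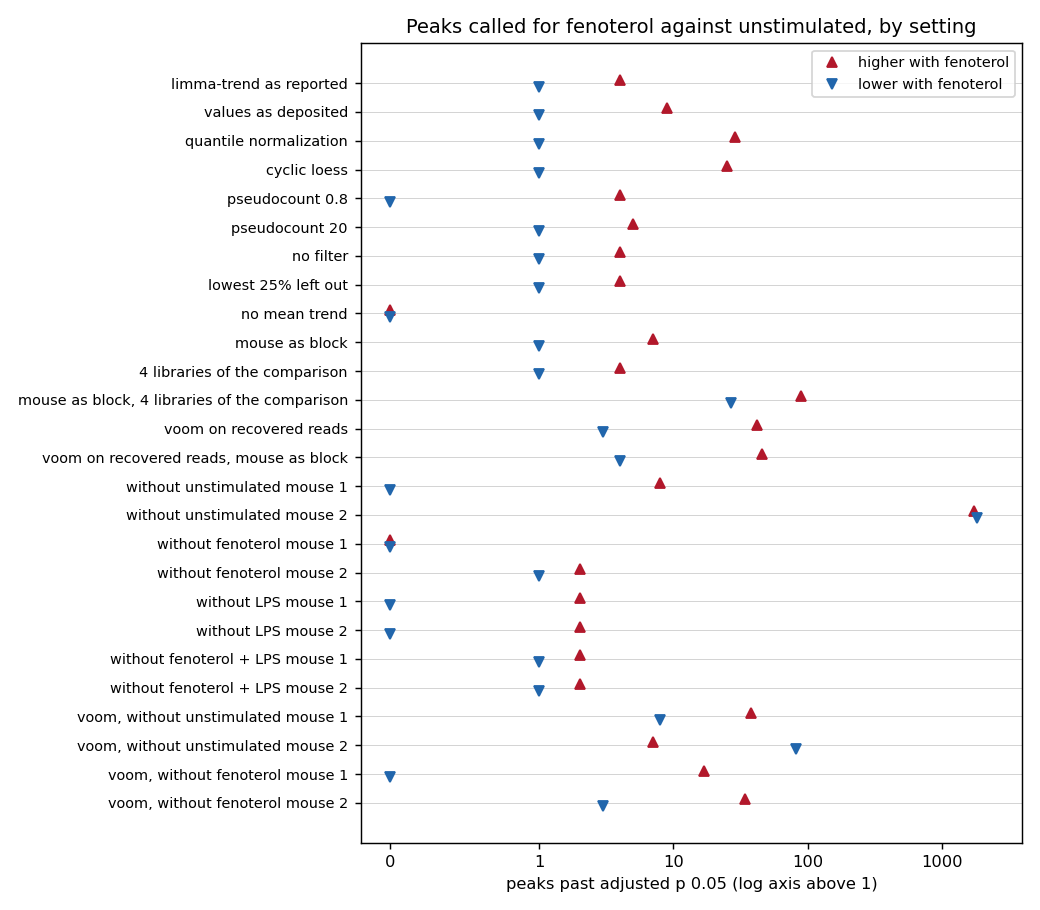
Number of peaks past an adjusted p of 0.05 (horizontal axis, logarithmic above 1) that were higher (upward triangles) or lower (downward triangles) with fenoterol, for limma-trend as reported and for each alternative. Counts run from 0 without the fenoterol library of mouse 1 to 1728 higher and 1826 lower without the unstimulated library of mouse 2.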

How the data were processed

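ATAC-seq libraries were made from crude nuclei treated with Tn5 transposase, per the labels' protocols. The submitters' processing notes name cutadapt, Bowtie2, MACS2, HOMER and build mm9. Not given in the sources used here are versions, duplicate removal, any Tn5 shift, and whether peaks were called on pooled samples. The authors deposited 1 RPKM value per peak and library. Multiplied by peak length, all values (100%) were within 0.01 of whole multiples of 1 read, so reads were recovered; peaks without reads appear set to 1 read.

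Size factors by the median-ratio method (0.94 to 1.04) set the libraries to 1 scale, and log2(value + 4) was taken. The 7421 peaks (10%) with a mean under 9.62 RPKM were left out. The 66786 others were fitted in R 4.3.3 by limma-trend of limma 3.58.1 (4 group means over 8 libraries, 4 residual degrees of freedom, prior degrees of freedom 16.4), two-sided with Benjamini-Hochberg adjustment. The p-values rest on 2 mice per group and on a spread shared over peaks. Voom used recovered reads with their totals as library sizes. Per the labels a mouse number marks 1 animal, which pairs the groups; mouse 2 minus mouse 1 correlated at 0.0223 to 0.0713 from group to group. No libraries were merged as duplicates, and the labels name a separate mouse for each library of a group. Within groups, the chi-square of reads over degrees of freedom was 0.89 to 1.21. Read counting alone gives a ratio near 1, so this ratio cannot show that the libraries come from separate animals.

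Named peaks are those past the threshold without or with the mouse as a block, and the 12 higher and 12 lower with the smallest unadjusted p that changed the same way in both mice. The comparison and these lists were chosen with earlier results of these data known. Alternatives were other scalings, pseudocounts, filters and tests, a block for the mouse, and leaving out each library.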

Additional observations from a re-analysis of the deposited data

How the results depend on the processing

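The limma-trend count of 5 peaks became 10 on the values as deposited, 30 after quantile normalization, 26 after cyclic loess, 8 with the mouse as a replicate block, 117 with the block and only the 4 libraries compared (where the spread was taken as the same at all peaks of a level), 45 by voom on recovered reads, 50 by voom with the block, and 0 without a mean trend (4741 at an unadjusted p under 0.05). Leaving out 1 library gave 0 to 3554 peaks. Leaving out 1 library by voom, a choice made after the data were seen, gave 46 and 89 without the unstimulated library of mouse 1 and 2, and 17 and 37 without the fenoterol library of mouse 1 and 2. The 5 remaining settings (pseudocount 0.8 or 20, every peak kept, the lowest 25% dropped, or only the 4 libraries compared) gave 4 to 6. The interaction count of 0 became 1 with the block, 5 by voom, 8 by voom with the block, 0 to 278 when 1 library was left out, and by voom 15 and 11 without the unstimulated library of mouse 1 and 2. The 29 peaks at least 2-fold higher in both mice became 13 after quantile normalization, 19 after cyclic loess, 165 and 0 with pseudocounts of 0.8 and 20, 45 without a filter, 14 with the lowest 25% left out and 579 at 1.5-fold. The 18 lower ones became 89 and 0, 29, 8 and 313 under the last 5 of these. In 624 trials over the 25 named peaks 35 lost a call and 82 gained one; their direction, fixed largely by how they were picked, is no sign of stability. The causes were not tested. Depth limits the low peaks most: the median tested peak held 10 reads in the unstimulated library of mouse 1.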
